A study of Rattus norvegicus with 27 samples.

Results

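Myelinating Schwann cells carry a set of membrane proteins outside compact myelin, and 8 genes of this system were followed through 3 culture stages of rat Schwann cells. They were Prx, Drp2 and Dag1 of the periaxin-dystroglycan complex, and Utrn, for another linker of dystroglycan. The others were Gjb1, Ncmap, Cldn19 and Mag of non-compact myelin and its junctions. The genes were taken by name from a gene count table of 17315 rows, in which each of the 8 had a row.

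Myelin made by a Schwann cell is compacted over most of its length, and cytoplasm remains in the paranodal loops, the Schmidt-Lanterman incisures, the inner and outer collars and the Cajal bands. Dystroglycan, the product of Dag1, binds laminin of the basal lamina outside the cell. On the inside it is joined to periaxin through the dystrophin-related protein Drp2, in patches of membrane that border the Cajal bands, while utrophin is the related linker to the actin cytoskeleton. Mutations of PRX and GJB1 cause inherited demyelinating neuropathies in people.

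RNA was sequenced from primary rat Schwann cells, bought from a vendor and used at passages 3 to 5. Undifferentiated cells were kept without dibutyryl cyclic AMP (dbcAMP), a cell-permeable form of the second messenger cyclic AMP; their medium at harvest is not otherwise given in the labels. Differentiated cells were held overnight in a starvation medium and then had 1 mM dbcAMP for 72 h in DMEM with 1% exosome-depleted serum. Dedifferentiated cells had the same 72 h of dbcAMP, followed by 72 h without it in a complete medium with 10% exosome-depleted serum, forskolin and neuregulin at 10 ng/mL. Forskolin is itself a drug that raises cyclic AMP in cells. The labels name no neurons in the cultures. Stage and medium changed together, so that the effects of the stages and of their media cannot be told apart. The measurements come from 9 of the study's 27 libraries, 3 for each stage. The titles call the 3 samples of a stage biological replicates without saying whether they were separate lots or cultures, so p-values measure the spread between these samples. Replicates 1 and 2 were sequenced in one project and replicate 3 in another.

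Libraries held 10058735 to 16212278 estimated counts. Levels are given as CPM, the count scaled to the library total, and 3 counts correspond to 0.185 to 0.298 CPM. Libraries of one stage correlated over genes at 0.975 or more, and libraries of different stages at 0.942 or less. Of 8 Schwann lineage markers, 7 were in the table and none of these was at 0 in any stage. Their summed level was 7530 to 8550 CPM in undifferentiated, 5760 to 6270 CPM in differentiated and 10300 to 10600 CPM in dedifferentiated cells. All 6 markers of oligodendrocytes, the other glia that make Mag, were under 1 CPM in each library, with Mobp and Olig2 at 0 and sums of 0.589 to 1.54 CPM. All 6 skeletal muscle markers were also under 1 CPM, with Myf5 at 0 and sums of up to 1.2 CPM. Of 6 endothelial and 6 macrophage markers, 5 each stayed under 1 CPM, with Cdh5, Cldn5 and Aif1 at 0 and sums of at most 8.26 and 5.17 CPM. The 8 fibroblast markers summed to 24400 to 29100, 12000 to 15700 and 16000 to 19600 CPM in the 3 stages in turn, nearly all of it collagen transcripts (Col1a1, Col1a2 and Col3a1), with Lum at 0 and Dcn, Pdgfra and Twist1 under 1 CPM. Among 6 neuronal markers, Nefl and Nefm gave sums of 190 to 516, 1430 to 1940 and 354 to 462 CPM, and the other 4 were under 1 CPM. Of 5 melanocyte markers, 3 were in the table, with sums of 0 to 0.327, 13.1 to 33.9 and 0.15 to 0.678 CPM and Mlana at 0. The part of these marker changes in the results below was not tested. In such bulk samples, fewer cells expressing a gene and less RNA per cell cannot be told apart.

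All 8 genes had enough counts to be tested, among 10372 that did. In edgeR's quasi-likelihood test, a gene was called at an adjusted p under 0.05. Between undifferentiated and differentiated cells, 6 of the 8 rose, none fell and 2 were not called, where 59.6% of all tested genes were called, 31.7% as higher and 27.9% as lower. Between differentiated and dedifferentiated cells, 3 rose, 2 fell and 3 were not called, against 46.4% of all tested genes called, 23.2% in each direction. Dedifferentiated cells had more transcript of all 8 genes than undifferentiated cells, against 29.4% of all genes called with 16.1% called higher and 13.3% lower. Libraries did not overlap between the stages for 6, 5 and 8 of the 8 genes in the 3 comparisons, and for 66.3%, 58.5% and 43.9% of all tested genes. The median log2 changes of the 8 genes were 6.77, -0.32 and 6.95 in these 3 comparisons, and those of all tested genes were 0.053, -0.0072 and 0.018. Drp2, Gjb1, Ncmap, Cldn19 and Mag passed the filter on low counts only through stages in which they were high, so these counts and medians are a description. The comparisons share samples and are not independent of one another.

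**Figure D1:**
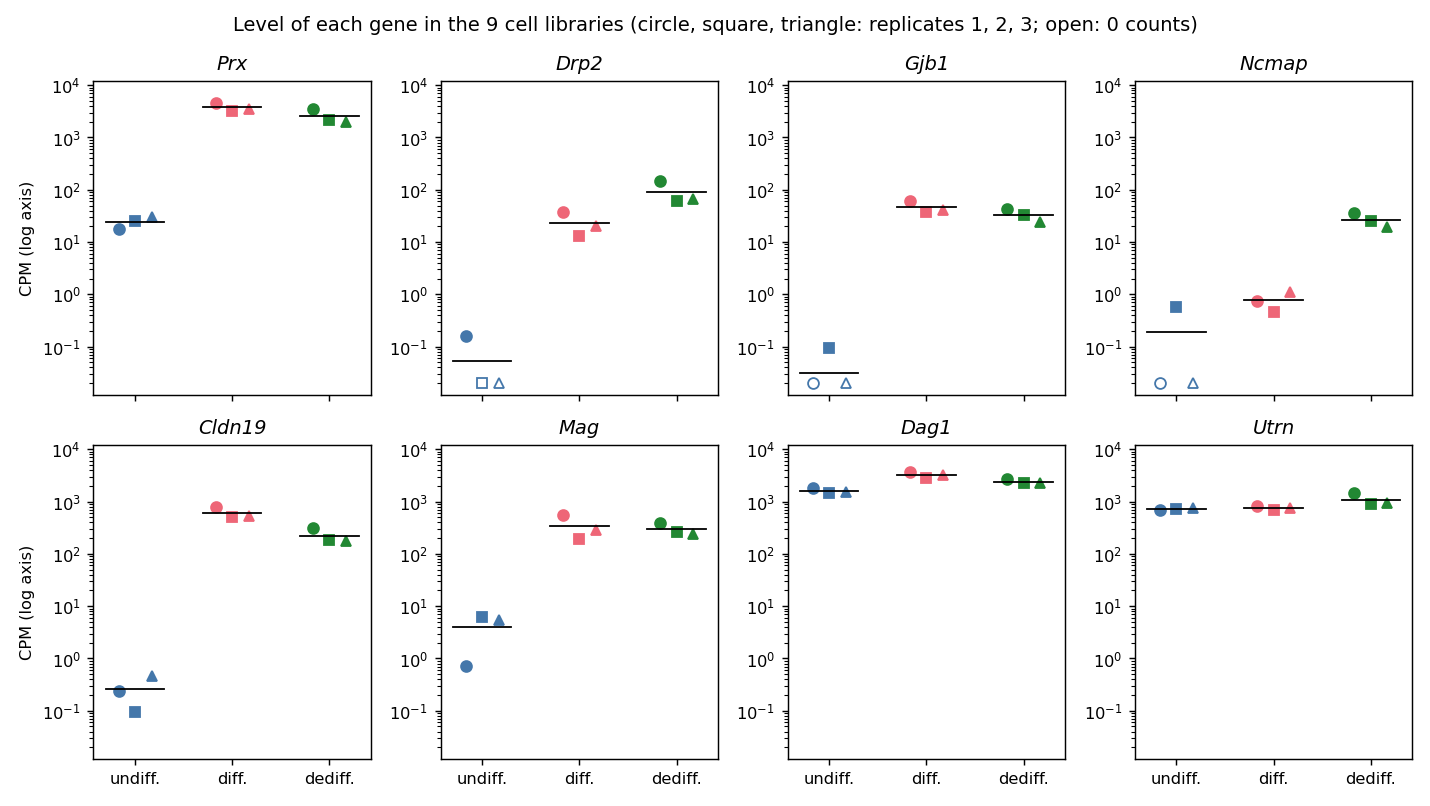
Level of each gene in CPM on a log axis, by stage, with a circle, a square and a triangle for replicates 1, 2 and 3, an open symbol for a library with 0 counts and a bar for the mean. Prx stood at 17.8 to 30.8 CPM in undifferentiated cells and at 1960 CPM or more in every other library, whereas Ncmap stayed at or below 1.11 CPM until the dedifferentiated stage.

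RefSeq's promoter windows for assembly GRCr8 held 7 of the 8 genes in 8 windows, with 2 for Drp2 and no entry for Dag1. Prx, Gjb1 and Cldn19, like Mag, had their highest mean in differentiated cells. Ncmap, like Drp2 and Utrn, had its highest in dedifferentiated cells. The 250 bases before the annotated start of Prx, Gjb1, Cldn19 and Ncmap are printed as examples. Each is written 5′ to 3′ on the strand of its gene, and capitals mark a searched motif.
Prx (chr1:91914171-91914420, plus strand): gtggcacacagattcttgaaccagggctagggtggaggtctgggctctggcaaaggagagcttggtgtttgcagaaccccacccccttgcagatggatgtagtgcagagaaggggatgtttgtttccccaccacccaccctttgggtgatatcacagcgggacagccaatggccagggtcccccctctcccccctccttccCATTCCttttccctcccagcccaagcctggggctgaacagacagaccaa
Gjb1 (chrX:70541595-70541844, plus strand): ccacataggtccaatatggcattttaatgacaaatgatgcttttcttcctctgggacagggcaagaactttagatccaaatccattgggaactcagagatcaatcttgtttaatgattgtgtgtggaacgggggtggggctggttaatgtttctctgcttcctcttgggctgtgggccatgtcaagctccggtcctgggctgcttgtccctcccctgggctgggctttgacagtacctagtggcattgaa
Cldn19 (chr5:138148325-138148574, plus strand): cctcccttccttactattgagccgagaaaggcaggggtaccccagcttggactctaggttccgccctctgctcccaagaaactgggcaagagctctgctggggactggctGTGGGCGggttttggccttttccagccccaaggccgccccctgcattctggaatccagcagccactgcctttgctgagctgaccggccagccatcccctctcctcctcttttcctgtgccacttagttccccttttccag
Ncmap (chr5:152902415-152902664, minus strand): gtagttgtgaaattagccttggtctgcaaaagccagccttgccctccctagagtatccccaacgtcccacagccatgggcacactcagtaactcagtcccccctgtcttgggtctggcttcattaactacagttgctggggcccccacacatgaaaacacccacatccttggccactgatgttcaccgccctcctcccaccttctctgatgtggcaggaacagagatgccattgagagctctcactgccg

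On both strands, 5 motifs were searched: the cyclic AMP response element TGACGTCA and its shorter form TGACG, a SOX core (ACAAAG), an EGR core (GTGGGCG) and a TEAD core (CATTCC). TGACGTCA and TGACG were in none of the 8 windows, and in 1.59% and 18.2% of all 33469 windows of this length. Any window with the first motif also holds the second. CATTCC was in 3 of the 8 windows and in 12.1% of all windows; it lay 49 bases before the start of Prx, 191 before that of Utrn and 136 before one start of Drp2. GTGGGCG was in the Cldn19 window alone, 140 bases before the start, and in 6.27% of all windows. ACAAAG was in the Mag window alone, 152 bases before the start, and in 16.3% of all windows. Ncmap and Gjb1 held none of the 5 motifs in the stretches printed. The Gjb1 window lies before the most upstream annotated start, and nerve is known to use a separate downstream promoter of this gene. A match is a run of letters in one window, and no binding was measured.

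Prx encodes periaxin, a scaffold protein of myelinating Schwann cells. It stood at 17.8, 25.3 and 30.8 CPM in undifferentiated replicates 1, 2 and 3, at 4640, 3240 and 3430 CPM in differentiated cells and at 3460, 2170 and 1960 CPM in dedifferentiated cells. Every library that had received dbcAMP was far above the undifferentiated ones, and the differentiated and dedifferentiated libraries overlapped. The rise on differentiation was 153-fold, from 24.6 ± 6.50 to 3770 ± 757 CPM (SD, n = 3) (log2 change 7.20, SE 0.316; edgeR adjusted p = 2.55e-08). After withdrawal the mean was 67.2% of the differentiated level, a log2 change of -0.56 that was not called (SE 0.239, edgeR adjusted p = 0.077). Without dedifferentiated replicate 1, its highest library at that stage, the change was -0.85 with an edgeR adjusted p of 0.00986. It was -0.37 without differentiated replicate 1 (edgeR adjusted p = 0.251) and -0.40 without dedifferentiated replicate 3 (edgeR adjusted p = 0.245). Against undifferentiated cells Prx was still 103-fold higher (log2 change 6.64, SE 0.309, edgeR adjusted p = 5.08e-07).

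Drp2, the dystrophin relative that joins periaxin to dystroglycan, was hardly detected before differentiation and was highest after withdrawal. Its levels were 0.161, 0 and 0 CPM in undifferentiated, 37.2, 13.1 and 20.6 CPM in differentiated and 145, 60.5 and 66.3 CPM in dedifferentiated cells. The 3 stages did not overlap. The undifferentiated libraries held 2 counts in all, against 1009 and 3198 in the later stages. The ratio of pooled CPM was 450 for differentiated over undifferentiated cells (exact 95% interval 124 to 3720) and 1730 for dedifferentiated over undifferentiated cells (479 to 14300), and these intervals cover counting error only. The fitted log2 changes were 8.52 (edgeR adjusted p = 2.15e-05) and 10.47 (edgeR adjusted p = 1.11e-05), and with so few counts they moved to 11.25 and 13.20 without undifferentiated replicate 1 and to 7.85 and 9.80 without undifferentiated replicate 3. From differentiated to dedifferentiated cells Drp2 rose 3.83-fold, from 23.6 ± 12.3 to 90.5 ± 47.1 CPM (SD, n = 3) (log2 change 1.95, SE 0.404; edgeR adjusted p = 0.00272).

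Dag1 encodes the precursor of α- and β-dystroglycan, the laminin receptor and its membrane partner. It was abundant at each stage, with 1780, 1480 and 1540 CPM in undifferentiated, 3660, 2870 and 3190 CPM in differentiated and 2690, 2270 and 2260 CPM in dedifferentiated cells. The stages did not overlap, and the differentiated libraries were the highest. The gene rose 2.02-fold on differentiation (log2 change 0.95, SE 0.133, edgeR adjusted p = 0.00012). It then fell to 74.3% of that level (log2 change -0.42, SE 0.132, edgeR adjusted p = 0.0253) and remained above undifferentiated cells, at 2410 ± 243 against 1600 ± 158 CPM (SD, n = 3; log2 change 0.54, SE 0.133; edgeR adjusted p = 0.0116). The fall was not called without differentiated replicate 1 (-0.31, edgeR adjusted p = 0.0911), dedifferentiated replicate 2 (-0.37, edgeR adjusted p = 0.0857) or dedifferentiated replicate 3 (-0.36, edgeR adjusted p = 0.0929). The remaining excess over undifferentiated cells was not called without undifferentiated replicate 2 (0.46, edgeR adjusted p = 0.06).

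Utrn encodes utrophin, the widely expressed relative of dystrophin that binds dystroglycan and actin. Its levels were 697, 707 and 754 CPM in undifferentiated, 825, 684 and 740 CPM in differentiated and 1440, 888 and 932 CPM in dedifferentiated cells. The first 2 stages overlapped and the dedifferentiated libraries lay above both, with replicate 1 well above the other two. No change was called on differentiation (log2 change 0.00, SE 0.168, edgeR adjusted p = 1), and a 1.45-fold rise followed on withdrawal (log2 change 0.55, SE 0.169, edgeR adjusted p = 0.0217). Without dedifferentiated replicate 1 this rise was 0.30 (edgeR adjusted p = 0.0307), and it was not called without differentiated replicate 2 (0.48, edgeR adjusted p = 0.0757) or 3 (0.53, edgeR adjusted p = 0.0623). The excess over undifferentiated cells was 0.55 (SE 0.169, edgeR adjusted p = 0.0324). It was not called without any single undifferentiated library (0.51 to 0.56, edgeR adjusted p = 0.0632 to 0.0955) or without dedifferentiated replicate 1 (0.27, edgeR adjusted p = 0.0666). Among Prx, Drp2, Dag1 and Utrn, those already abundant in undifferentiated cells, Utrn and Dag1, thus had log2 changes of at most 0.95. Prx and Drp2 had changes of 6.64 or more against undifferentiated cells.

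Gjb1 encodes connexin-32, the gap junction protein that connects the cytoplasmic layers of paranodes and incisures. It gave 0, 0.0961 and 0 CPM in undifferentiated cells, which is 1 count in 3 libraries. It gave 61.3, 37.7 and 40.6 CPM in differentiated and 43.0, 32.6 and 24.6 CPM in dedifferentiated cells. Both later stages were above all undifferentiated libraries and overlapped each other. The pooled ratio was 1760 for differentiated over undifferentiated cells (exact 95% interval 316 to 69700) and 1260 for dedifferentiated over undifferentiated cells (226 to 49800). The fitted log2 changes were 10.29 (edgeR adjusted p = 1.12e-07) and 9.82 (edgeR adjusted p = 1.47e-06), and without undifferentiated replicate 2, which held the single count, they were 12.24 and 11.78. Without undifferentiated replicate 3 they were 9.69 and 9.22. The mean after withdrawal was 71.8% of the differentiated level, a log2 change of -0.47 that was not called (SE 0.239, edgeR adjusted p = 0.133). It was called without dedifferentiated replicate 1 (-0.69, edgeR adjusted p = 0.0481), and was smaller without differentiated replicate 1 (-0.20, edgeR adjusted p = 0.491) or dedifferentiated replicate 3 (-0.28, edgeR adjusted p = 0.396).

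Cldn19 encodes claudin-19, a tight junction protein of the paranodal loops and mesaxons. Its levels were 0.242, 0.0961 and 0.458 CPM in undifferentiated, 791, 514 and 541 CPM in differentiated and 309, 183 and 179 CPM in dedifferentiated cells. No 2 stages overlapped. From 11 counts in the undifferentiated libraries to 26164 in the differentiated ones, the pooled ratio was 2120 (exact 95% interval 1180 to 4250) and the log2 change was 10.96 (SE 0.433, edgeR adjusted p = 1.28e-08). On withdrawal Cldn19 fell 2.75-fold to 36.4% of the differentiated level (log2 change -1.45, SE 0.235, edgeR adjusted p = 0.000599), the largest fall among the 8 genes. Dedifferentiated cells still had a pooled ratio of 775 over undifferentiated cells (433 to 1550) (log2 change 9.51, SE 0.432; edgeR adjusted p = 4.45e-07). Without undifferentiated replicate 3, the changes from undifferentiated cells were 11.62 and 10.17.

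Ncmap encodes a small membrane protein named for its place in non-compact myelin, and its transcript was near the detection limit until withdrawal. It gave 0, 0.577 and 0 CPM in undifferentiated, 0.737, 0.463 and 1.11 CPM in differentiated and 36.3, 24.9 and 19.3 CPM in dedifferentiated cells. The first 2 stages overlapped, and all 3 dedifferentiated libraries were far above them. In counts, the 3 stages held 6, 34 and 935 in turn. The rise on withdrawal was 34.8-fold, from 0.770 ± 0.325 to 26.8 ± 8.65 CPM (SD, n = 3) (log2 change 5.09, SE 0.494; edgeR adjusted p = 1.78e-05), with a pooled ratio of 33.4 (exact 95% interval 23.8 to 48.6). On differentiation the pooled ratio was 5.05 (2.10 to 14.7) and the log2 change of 2.18 was not called (SE 0.914, edgeR adjusted p = 0.0608). All 6 undifferentiated counts were in replicate 2, and without that library this change was 6.37 and was called (edgeR adjusted p = 0.00478). Dedifferentiated cells were 140-fold above undifferentiated ones (log2 change 7.26, SE 0.633, edgeR adjusted p = 1.62e-05). Leaving out undifferentiated replicate 2 or 3 gave 11.46 or 6.54 for this last change, and leaving out replicate 3 gave 1.45 for the change on differentiation.

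Mag encodes myelin-associated glycoprotein, an adhesion molecule of the inner membrane that faces the axon. Its levels were 0.725, 6.15 and 5.37 CPM in undifferentiated, 550, 190 and 285 CPM in differentiated and 383, 257 and 241 CPM in dedifferentiated cells. The later stages overlapped each other and not the first, in which replicate 1 was the lowest. Mag rose 83.8-fold on differentiation, from 4.08 ± 2.93 to 342 ± 187 CPM (SD, n = 3) (log2 change 6.35, SE 0.576; edgeR adjusted p = 4.77e-06). Withdrawal left it at 85.8% of that mean, and the log2 change of -0.21 was not called (SE 0.421, edgeR adjusted p = 0.704). Its sign rested on differentiated replicate 1, the highest library at 550 CPM, without which the change was 0.33 (edgeR adjusted p = 0.512). The level remained 71.9-fold above undifferentiated cells (log2 change 6.13, SE 0.573, edgeR adjusted p = 2.52e-05).

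**Figure D2:**
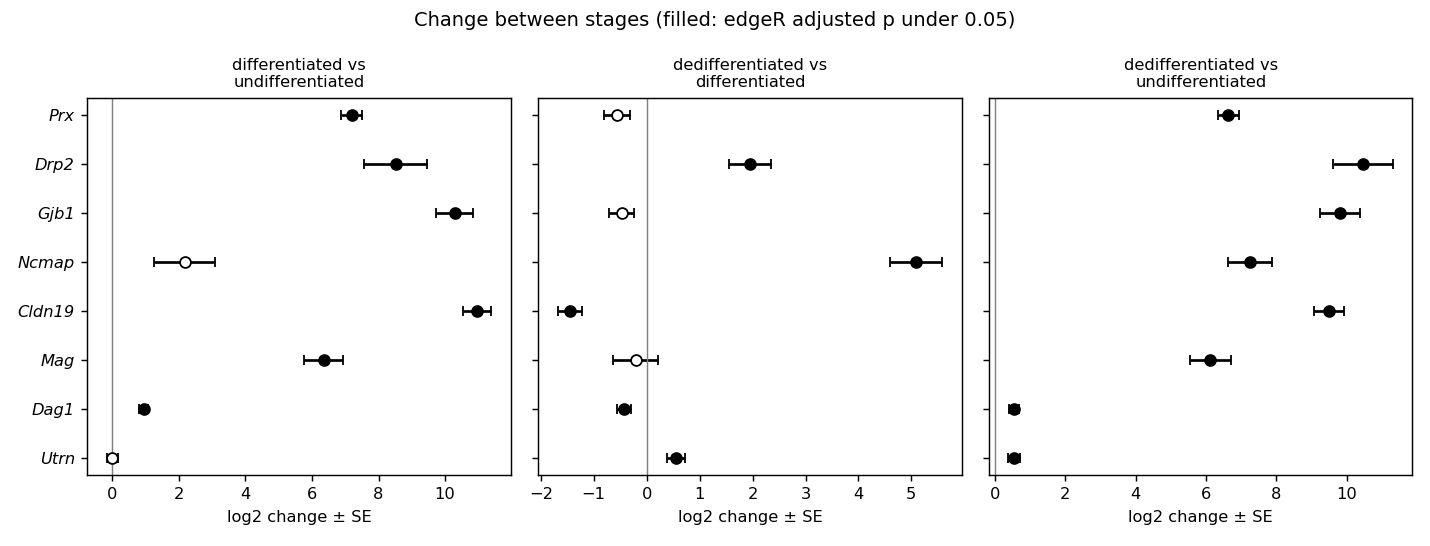
Log2 change of each gene with its standard error in the 3 stage comparisons, filled where the edgeR adjusted p was under 0.05; each panel has its own horizontal scale. On differentiation 6 genes lie to the right of 0 and filled, on withdrawal Drp2, Ncmap and Utrn lie to the right and Cldn19 and Dag1 to the left, and all 8 are filled to the right against undifferentiated cells.

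By the order of mean levels the genes formed 2 courses. Prx, Gjb1, Cldn19, Mag and Dag1 were lowest in undifferentiated, intermediate in dedifferentiated and highest in differentiated cells. Drp2, Ncmap and Utrn were lowest in undifferentiated and highest in dedifferentiated cells. Neighbours in these orders overlapped between differentiated and dedifferentiated cells for Prx, Gjb1 and Mag, and between undifferentiated and differentiated cells for Ncmap and Utrn. Replicate 1 was the highest of its stage for 7 of the 8 genes in differentiated cells and for all 8 in dedifferentiated cells, and for 2 of the 8 in undifferentiated cells. How often this held over all tested genes is not given here, so it cannot be read as particular to these genes.

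The sequencing project could be separated from stage in part, since each project held all 3 stages. All 6, 5 and 8 called changes had the same sign in both projects. In each of them the libraries of the 2 stages did not overlap, so the shared sign was largely fixed in advance and adds little. In the first project alone, with 2 libraries a stage, 6, 3 and 6 of the 8 genes were called in the 3 comparisons. Calls over all genes were fewer as well. The fit of all 9 libraries called 6179, 4809 and 3045, and that of the first project 4358, 2606 and 1283. There the withdrawal changes were 2.04 for Drp2 (edgeR adjusted p = 0.0332), -1.40 for Cldn19 (edgeR adjusted p = 0.0137) and 5.66 for Ncmap, and the single libraries of the second project differed by 1.69, -1.58 and 4.09. The Dag1 and Utrn withdrawal changes were -0.38 and 0.64 in the first project (edgeR adjusted p = 0.189 and 0.0853) and -0.49 and 0.34 in the second. Their changes against undifferentiated cells, 0.54 and 0.67, also missed the threshold in the first project (edgeR adjusted p = 0.116 and 0.109), and were 0.53 and 0.28 in the second.

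A ratio to Prx within each library shows how the other genes moved relative to periaxin on withdrawal, free of library scaling. It was formed from counts with 0.5 added and compared with an exact two-sided permutation test, whose smallest p for 3 against 3 is 0.1. For Ncmap the log2 ratios were -12.55, -12.66 and -11.55 in differentiated and -6.57, -6.45 and -6.66 in dedifferentiated cells, a difference of 5.69. For Drp2 they were -6.96, -7.94 and -7.38, then -4.58, -5.17 and -4.89, a difference of 2.55. Drp2 transcript thus rose 5.85 times relative to that of its partner Prx. For Utrn the difference was 1.10, from -2.32 ± 0.15 to -1.21 ± 0.12 (SD, n = 3). For Cldn19 it was -0.88, from -2.62 ± 0.06 to -3.50 ± 0.06 (SD, n = 3), so that Cldn19 was lower relative to Prx after withdrawal. Stages did not overlap for these 4 genes, each with an exact permutation p of 0.1, the smallest possible, and 0.175 after Benjamini-Hochberg adjustment over the 7 ratios. Ratios of Gjb1, Mag and Dag1 to Prx overlapped, with differences of 0.12, 0.49 and 0.17 and exact permutation p of 0.4, 0.3 and 0.5.

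**Figure D3:**
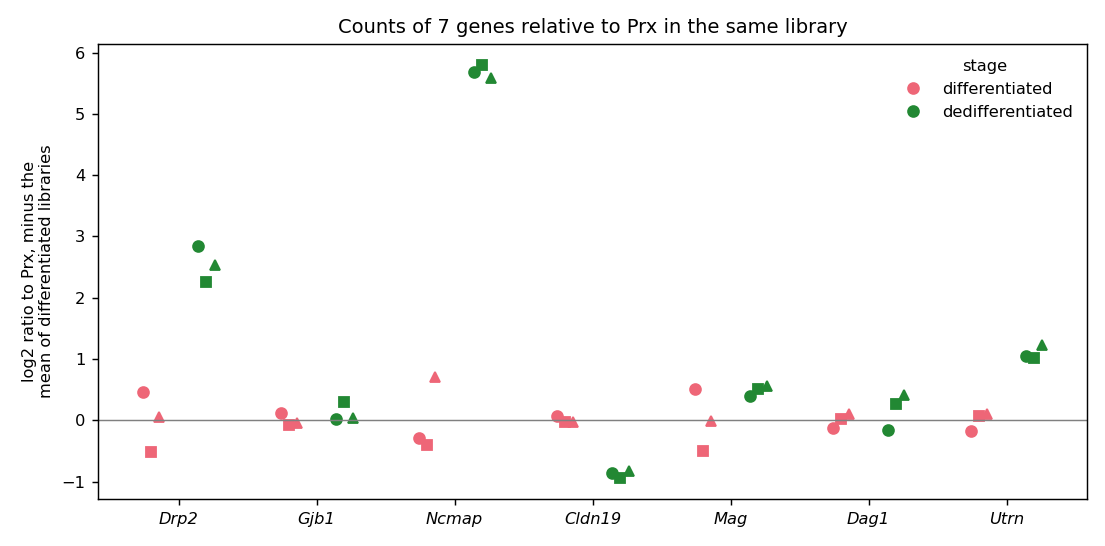
Log2 ratio of each gene's count to that of Prx in the same library, minus the mean of the 3 differentiated libraries; circle, square and triangle are replicates 1, 2 and 3. Dedifferentiated libraries lie apart from differentiated ones for Drp2, Ncmap and Utrn above 0 and Cldn19 below, and mix with them for Gjb1, Mag and Dag1.

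The genes most like each of the 8 over the 9 libraries were found by Pearson's r of log2 CPM, a description that mostly reflects the 3 stages and ignores the size of a change. For Prx they were Mpdu1, Eef2k and Gjb1 (r of 0.998, 0.9977 and 0.9972). For Gjb1 they were Il34, a cytokine gene, Bcas1, and Prx (0.9993, 0.9973 and 0.9972). Il34 went from 0.032 ± 0.0555 CPM in undifferentiated to 56.7 ± 18.2 and 47.9 ± 11.2 CPM in the later stages (SD, n = 3), whereas Mpdu1 rose only 1.41-fold on differentiation. For Cldn19 they were Kif19, the potassium channel gene Kcnj10 and Elovl7 (0.9987, 0.9975 and 0.9967), and for Mag they were Il16, Fa2h, whose enzyme makes hydroxylated myelin lipids, and Zfyve9 (0.9951, 0.9947 and 0.9938). For Drp2 they were the ion transporter gene Slc12a2, the POU factor gene Pou3f2 and Cxcl14 (0.9959, 0.9954 and 0.9935). Their log2 changes on withdrawal were 0.83, 0.52 and 1.10, a direction favoured by their choice for likeness to Drp2 in these same libraries. Dag1 had Tfrc, the transferrin receptor gene, Ercc2 and Neurl1b (0.9912, 0.9894 and 0.9886). Ncmap had Olfml2a, Cfap52 and Psmf1 (0.981, 0.9801 and 0.9773), and Utrn had Sema5a, Lrba and Tpra1 (0.9627, 0.9521 and 0.9422). Sema5a was near the detection limit, at 0.188 ± 0.104, 0.143 ± 0.197 and 3.68 ± 4.01 CPM in the 3 stages in turn (SD, n = 3). Lrba was called in no comparison. At r above 0.95 there were 23 genes for Ncmap and 2 for Utrn, and 115 to 285 for the other 6.

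Other genes of the same membrane system were read from lists. Some list genes, such as Dtnb and Cdh1, passed the filter on low counts only through stages in which they were high. The counts and medians of the lists are therefore a description. Of 15 dystrophin-associated genes (dystrophin, dystrobrevins, syntrophins, sarcoglycans and sarcospan), 14 were in the table and 10 were tested. On differentiation 7 fell and 1 rose (median log2 change -1.12), where 27.9% of all tested genes fell and 31.7% rose. On withdrawal 8 rose and 1 fell (median 1.16), where 23.2% of all genes went each way. Against undifferentiated cells 3 were higher, 2 lower and 5 not called, where 16.1% of all genes were higher and 13.3% lower. The gene that went the other way was Dmd, encoding dystrophin and its shorter products, whose level was 14.4 ± 1.12, 174 ± 15 and 85.6 ± 20.7 CPM in the 3 stages in turn (SD, n = 3). It rose by 3.53 on differentiation (edgeR adjusted p = 4.86e-08) and fell by 1.01 on the log2 scale on withdrawal (edgeR adjusted p = 0.000327). The syntrophin gene Sntb1 changed by -2.50 and 1.75, sarcospan (Sspn) by -1.97 and 1.14, the dystrobrevin gene Dtnb by -2.54 and 1.90 and ε-sarcoglycan (Sgce) by -0.55 and 0.70. Dtnb was low throughout, at 2.75 ± 0.448, 0.468 ± 0.289 and 1.79 ± 0.607 CPM in the 3 stages in turn (SD, n = 3). Among the others that fell and then rose, levels in differentiated cells went down to 0.16 CPM, near the detection limit. Dag1 thus changed in the direction of Dmd at both steps, and Utrn rose on withdrawal with the 8.

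Of 11 listed ligands of dystroglycan, 8 were in the table and 6 tested; 2 rose and 2 fell on differentiation, 2 rose and 3 fell on withdrawal, and 3 were lower in dedifferentiated than in undifferentiated cells (median log2 changes 0.50, -0.73 and -0.23). Of all tested genes, 59.6%, 46.4% and 29.4% were called in these comparisons, and the share of ligands called on differentiation was near that background. By direction, 31.7%, 23.2% and 16.1% of all tested genes were higher and 27.9%, 23.2% and 13.3% lower. Agrn, which encodes the proteoglycan agrin, fell by 3.26 on the log2 scale on differentiation, from 2050 ± 320 to 224 ± 18.6 CPM (SD, n = 3, edgeR adjusted p = 8.28e-09), and rose by 2.44 on withdrawal (edgeR adjusted p = 1.47e-07). The laminin chain genes Lamc1 and Lama4 moved as Dag1 did, by 1.19 and 0.94 on differentiation and by -0.89 and -0.83 on withdrawal, whereas Lamb2 changed by -1.25 and 0.40. Of 14 genes for the glycosylation of dystroglycan, 13 were tested. On differentiation 4 rose and 4 fell, on withdrawal 4 rose and 3 fell (4 calls in all without dedifferentiated replicate 3), and 2 were higher and 2 lower against undifferentiated cells (2 calls in all without that library). Their median log2 changes were 0.11, -0.021 and 0.071. Against the 59.6% and 46.4% of all genes called at the first 2 steps, the glycosylation genes were called about as often as any. Ispd rose by 1.39 on differentiation and fell by 0.68 on the log2 scale on withdrawal. Tmem5, Large and Pomgnt1 had the opposite course, with -1.16, -0.94 and -0.67, then 0.88, 0.52 and 0.42.

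Of 26 other genes for paranodes, incisures and nodal microvilli, 23 were in the table and 22 tested. On differentiation 12 rose and 6 fell (median log2 change 0.74), on withdrawal 7 rose and 4 fell (median 0.044), and against undifferentiated cells 11 were higher and 3 lower (median 0.46). The background was 59.6%, 46.4% and 29.4% of all genes called, and on withdrawal the share in this list was close to it. By direction, 31.7%, 23.2% and 16.1% of all genes were called higher and 27.9%, 23.2% and 13.3% lower. Nfasc, which encodes neurofascin, the glial adhesion molecule of the paranodal junction, rose at both steps, from 0.145 ± 0.128 to 2.45 ± 0.837 and then to 66.0 ± 39.3 CPM (SD, n = 3). These log2 steps of 4.05 and 4.78 were both called (adjusted p by edgeR 0.00369 and 1.47e-05). Cdh1, the E-cadherin gene of incisure and paranodal adherens junctions, went from 0.376 ± 0.341 to 117 ± 12.5 CPM on differentiation and stood at 116 ± 44.2 CPM after withdrawal (SD, n = 3; log2 changes 8.32 and 0.00, edgeR adjusted p = 7.34e-08 and 0.998). Rdx and Lin7c rose and then fell as Cldn19 did, by 1.31 and -1.04 and by 1.35 and -1.22. Ctnnd1, the p120 catenin gene, changed by -1.67 and 0.31.

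Among relatives of single members, Ahnak, a large scaffold gene related to Prx, fell by 0.91 on the log2 scale on differentiation (edgeR adjusted p = 0.000225) and rose by 0.75 on withdrawal (edgeR adjusted p = 0.0013), the reverse of Prx on differentiation. Against undifferentiated cells its change of -0.15 was not called (edgeR adjusted p = 0.443), and it was called lower without dedifferentiated replicate 1. Of 17 other connexins, 14 stayed under 1 CPM in every library and 3 were tested. Gja1 rose by 2.37 on differentiation and fell by 3.01 on the log2 scale on withdrawal, and Gja3 did the opposite (-3.83 and 3.14). Gjc1 fell by 0.70 on the log2 scale on differentiation. Of 24 other claudins, 19 stayed under 1 CPM and 5 were tested. Cldn14 rose and fell like Cldn19, by 2.40 and -5.09, but was lower in dedifferentiated than in undifferentiated cells (-2.70, edgeR adjusted p = 0.0376). Cldn23 changed by -4.36 and 4.16, and Cldn12 stood at 15.8 to 27.7 CPM as a stage mean, with a rise of 0.66 on withdrawal (edgeR adjusted p = 0.0128).

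The 6 compact myelin genes gave a point of comparison for the non-compact ones. All 6 rose on differentiation (median log2 change 2.90), where 31.7% of all genes rose. On withdrawal 3 rose, 1 fell and 2 were not called (median 0.57), where 23.2% of all genes went each way. All 6 were higher in dedifferentiated than in undifferentiated cells (median 3.80), where 16.1% of all genes were higher. Pmp22, for a membrane protein of compact myelin, rose at both steps, from 780 ± 275 to 2880 ± 653 and 5950 ± 1130 CPM (SD, n = 3). Pmp2, for a fatty acid binding protein of myelin, had the course of Cldn19, with 6.98 and -1.69. Mal, for a raft protein of myelin, rose by 11.59 and Mbp by 3.93 on differentiation, with no call on withdrawal, as for Prx, Gjb1 and Mag. Of 9 other genes mutated in demyelinating neuropathies, 8 were in the table and 7 tested. On differentiation 2 rose and 3 fell, and on withdrawal 4 rose and 1 fell, or 3 calls in all without differentiated replicate 1, differentiated replicate 2 or dedifferentiated replicate 1. Against undifferentiated cells 3 were higher and 1 lower, and the medians of the 3 comparisons were -0.12, 0.43 and -0.050, beside 59.6%, 46.4% and 29.4% of all genes called. Ndrg1 shared the course of Utrn, with no call on differentiation (0.12, edgeR adjusted p = 0.436) and a rise of 1.82 on withdrawal (edgeR adjusted p = 2.68e-06). Mtmr2 rose by 0.57 and fell by 0.23 on the log2 scale, as Dag1 did with larger changes, and Sbf1 fell on differentiation by 1.08 on the log2 scale and rose on withdrawal by 0.75.

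**Figure D4:**
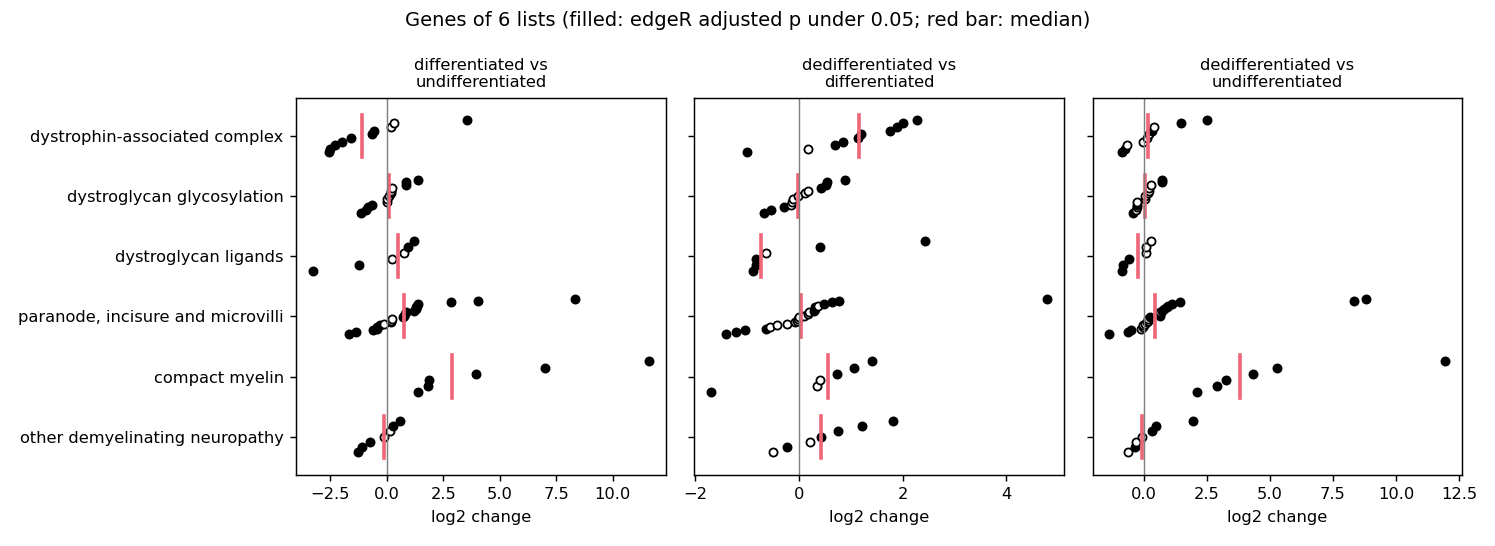
Log2 change of each tested gene of 6 lists in the 3 stage comparisons, filled where the edgeR adjusted p was under 0.05, with a red bar for the list's median; each panel has its own horizontal scale. The dystrophin-associated list has its median at -1.12 on differentiation and 1.16 on withdrawal, with Dmd alone far on the other side, and the compact myelin genes all lie to the right of 0 against undifferentiated cells.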

How the data were processed

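Cell RNA from 3 stages of rat Schwann cells was measured in 9 libraries. The table deposited by the authors holds estimated counts per gene; Salmon is named in the submitters' processing notes, beside DESeq2 1.26.0, and the kit was directional per the labels' protocols. The genome build and annotation are not given in the sources used here. Of all values 1.15% were fractional, none of them in the 8 genes, and all were rounded to whole numbers. Replicate numbers follow the sample titles, with which a suffix in the column names disagrees.

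From these counts, 17315 genes were filtered with filterByExpr (minimum count 10), which left 10372. Column totals were scaled by TMM (factors 0.949 to 1.03), and the 3 stages were fitted together with edgeR 4.0.16 in R 4.3.3 by the quasi-likelihood test without covariates. P-values were adjusted by Benjamini-Hochberg over all tested genes. Standard errors of log2 changes were derived from the F statistic. The scripts were tested on simulated data. Library totals of 10058735 to 16212278 counts set a floor of 3 counts at up to 0.298 CPM, and exact 95% intervals of pooled ratios cover counting error only.

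The 8 genes, the lists and the marker sets were chosen with earlier results of these data known. Named genes were the 8, the 3 genes of highest Pearson's r with each (log2 CPM with a prior count of 2), and of each list up to 6 genes called in a comparison without overlap of libraries, by smallest p. Through older symbols, 9 list genes were matched. Alternatives were DESeq2 1.42.0, other scalings and filters, the replicate block, the sequencing project, the stages compared alone and each library left out. Some list genes are not reported by name here. The vesicle RNA tables were not used.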

Additional observations from a re-analysis of the deposited data

How the results depend on the processing

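Over 19 alternatives, 428 of the gene-by-setting log2 changes of the 8 genes kept their direction and side of the threshold, 15 lost the call, 6 gained one and 6 changed sign. Those 6 were values near 0 that were not called: Utrn on differentiation was 0.06 with library size alone, 0.03 within the first sequencing project, and 0.01, 0.07 and 0.02 without undifferentiated replicate 3, differentiated replicate 2 and differentiated replicate 3, and Mag on withdrawal was 0.33 without differentiated replicate 1. Leaving out one library at a time, those values ranged from -0.09 to 0.07 for Utrn and from -0.51 to 0.33 for Mag. Each library left out in turn gave 6 to 7, 4 to 7 and 6 to 8 called genes of the 8 in the 3 comparisons, and 5558 to 6415, 3916 to 5184 and 2246 to 3044 of all genes. Within the first project, with 2 libraries a stage, 3 of the 8 genes were called on withdrawal, against 5, and 2606 of all genes, against 4809; for dedifferentiated against undifferentiated cells the count was 1283, against 3045. Fewer libraries entered that fit. List calls fell there too, on differentiation from 8 to 5 for the dystrophin-associated genes, and on withdrawal from 7 to 1 for the glycosylation genes, from 5 to 3 for the ligands, from 11 to 7 for the paranode, incisure and microvilli genes and from 4 to 2 for compact myelin. DESeq2's Wald test called Prx on withdrawal (-0.56, DESeq2 adjusted p = 0.0342), and a fit without a filter called Ncmap on differentiation (2.15, edgeR adjusted p = 0.0475). Utrn against undifferentiated cells was not called with only those stages fitted (0.55, edgeR adjusted p = 0.0573). The titles do not say that equal replicate numbers share a culture, and same-numbered libraries of different stages correlated in their deviations at 0.028 to 0.304, with 7 of 9 pairs over 0.1 and 7 of 9 libraries best with their own number. With the replicate number as a block, 6325, 5031 and 3256 genes were called, and 6, 6 and 8 of the 8, where Gjb1 on withdrawal was the added call (-0.47, edgeR adjusted p = 0.0212). The exact sign-flip test of the ratios to Prx with the block gave its smallest p, 0.25, for Drp2, Ncmap, Cldn19 and Utrn. By Spearman's rho, at most 1 of the 3 genes nearest to each of the 8 was shared with Pearson's list. At 1 to 11 counts in all undifferentiated libraries, the size of the changes of Drp2, Gjb1, Ncmap and Cldn19 from that stage is limited by depth.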
